A study of Urocitellus parryii with 3 samples.

Results

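Of the miRNAs that mark stromal cells, miR-143, miR-145, miR-199a and miR-214 were followed through 3 stages of the year in livers from a hibernator, Urocitellus parryii, the arctic ground squirrel. Members were the array entries named mmu-miR-143, mmu-miR-145, mmu-miR-199a-5p, mmu-miR-199a-3p or mmu-miR-214 (written below without the prefix for mouse), and 4 of these 5 names were found among the 567 mouse miRNA entries. No entry is named miR-199a-3p. The entry named miR-199b lists miR-199a-3p beside miR-199b in its accession field, so its values are given next to the members and not counted among them. Late torpor is the cold, inactive phase of a hibernation bout, early arousal is the start of rewarming, and post-reproduction falls in the active season. Each stage was 1 pool of liver total RNA, mixed in equal amounts from animals of that stage and hybridised to 1 array. The genotypes, ages, sexes and number of animals in a pool are not given in the sources used here. With 1 array per stage there is no test between stages, and every error below comes from repeated spots of a probe on the same array. The stage, its pool and its place on the slide therefore cannot be told apart.

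miR-143 and miR-145 are made from one primary transcript in smooth muscle cells and pericytes, where serum response factor and myocardin drive them and where they favour the contractile state. The miR-199a hairpin on chromosome 1 and miR-214 are made from Dnm3os, a long non-coding RNA read antisense to the Dnm3 gene, in fibroblasts and other mesenchymal cells. In the liver these miRNAs belong to hepatic stellate cells, the vitamin A storing pericytes that make collagen when activated, and to vessel walls and portal fibroblasts, rather than to hepatocytes. The tissue label was borne out by miR-122, the main hepatocyte miRNA, which was the brightest entry on each of the 3 arrays, its brightest probe having 49887 to 59409 intensity units. In bulk RNA, fewer stromal cells and less of a miRNA per cell cannot be told apart.

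The probe targets are given on the mouse genome (mm9), since the array was designed on mouse miRNAs. The miR-143 target lies on chromosome 18 from 61808853 to 61808868, and that of miR-145 from 61807520 to 61807533, with 1319 bases between them. On chromosome 1 the miR-199a-5p target runs from 164147979 to 164147997 and the miR-214 target from 164153578 to 164153590, with 5580 bases between them. The target of the miR-199b entry runs from 164148016 to 164148035, only 18 bases from the miR-199a-5p target, the spacing of the other arm of one hairpin. The entry miR-199b* has its target on chromosome 2, at 32174006 to 32174027, the position of the separate miR-199b gene. All of these lie in non-coding miRNA genes, and the match of the probes to the squirrel miRNAs was not analysed here. The members had 8 probes with 80 spots per array, and 5 of these probes were detected on all 3 arrays. Detection asked that over 50% of a probe's spots, outliers aside, carry the scanner program's mark for being well above background. A miRNA counts as measured if at least 1 probe met this on all arrays. All 4 members were measured, among 135 measured mouse miRNAs.

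miR-143, which represses the growth-linked factor Elk1, was the member with the firmest signal, as both of its probes were detected with all 10 spots on each array. Its first probe, with a target of 15 bases, had a mean of 51.7 ± 2.20 intensity units (SD over 10 spots) in post-reproduction, 47.5 ± 2.85 in late torpor and 44.0 ± 3.24 in early arousal. The second probe, with a target of 16 bases, had 75.5 ± 3.98, 70.4 ± 3.68 and 67.7 ± 4.40 in the same order. On the deposited scale both probes had the same order of stages, with post-reproduction highest and early arousal lowest, but the spots of the stages overlapped. After each array was scaled to its own bright probes (the 75th percentile of the 250 probes that every array detected), the order was no longer the same: late torpor was 0.079 ± 0.024 (SE from spots) above post-reproduction on the log2 scale, and early arousal was at -0.013 ± 0.027.

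miR-145, the partner of miR-143 and a repressor of Klf4 in smooth muscle, was dim. Its probe with a target of 14 bases had 15.7 ± 2.89 units in post-reproduction, 14.3 ± 1.52 in late torpor (9 spots) and 14.3 ± 2.02 in early arousal. The spots of the 3 stages covered nearly the same range, from 12.5 to 21.0 units in post-reproduction, up to 17.2 in late torpor and from 12.2 to 17.6 in early arousal. For comparison, 95% of the 672 negative control spots lay below 5.25 to 5.31 units per array, and the lowest spot marked well above background lay at 8.49 to 10.7. As a mark of off-target signal, the viral entry mghv-miR-M1-2 was taken by the brightest of its 4 probes. It had 26.6 units in post-reproduction, 26.5 in late torpor and 22.2 in early arousal, so the miR-145 probe was dimmer on each array. Whether other probes carry off-target signal of that size was not tested. The second probe of miR-145, with a target of 13 bases, had means of 6.08 to 7.01 units and was not detected on any array. The scaled difference of the detected probe was 0.074 ± 0.093 for late torpor against post-reproduction and 0.060 ± 0.10 for early arousal, smaller than its own error from spots in both cases.

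miR-199a-5p, a repressor of caveolin-1 in fibroblasts, had the largest difference of any member. Its probe with a target of 19 bases had 82.9 ± 3.83 units in post-reproduction (9 spots), 71.9 ± 3.57 in late torpor (8 spots) and 56.9 ± 2.77 in early arousal (10 spots). With outlier spots left out, each stage was separate from the others on the deposited scale: the spots ran from 76.8 to 86.6 in post-reproduction, from 66.4 to 76.4 in late torpor and from 52.7 to 60.7 in early arousal. The spots left out, at 16.1 and 92.7 units in late torpor and 68.0 in post-reproduction, would make the stages overlap. After scaling, the kept spots of late torpor and post-reproduction overlapped and early arousal stayed below both. The second probe, with a target of 18 bases, had 10.3 ± 2.06, 9.39 ± 2.09 and 7.25 ± 1.74 units in the same order of stages and was detected in late torpor alone. It is therefore not part of the measured value. Its log2 difference between early arousal and post-reproduction was -0.33 ± 0.15, beside -0.36 ± 0.032 for the first probe. The second probe was detected in neither of these stages and its spots overlapped between them, so its value adds no support.

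The entry miR-199b, which reads miR-199a-3p, a repressor of mTOR and Met, as well as miR-199b, was measured on both of its probes. The probe with a target of 19 bases had 128 ± 4.29 units in post-reproduction (8 spots), 111 ± 3.15 in late torpor (9 spots) and 92.6 ± 3.02 in early arousal (9 spots). The probe with a target of 20 bases had 251 ± 10.6, 216 ± 11.8 and 183 ± 7.81 units over 10 spots each. Like miR-199a-5p, both probes had their lowest spots in early arousal, where the kept spots did not overlap with either of the other stages before or after scaling. The first of these probes had an outlier spot at 91.6 units in late torpor, within the range of early arousal, and the second had none. miR-199b*, the strand that corresponds to miR-199a-5p in the miR-199b gene, was measured on 1 probe with 39.7 ± 4.26, 32.1 ± 4.83 and 28.7 ± 2.50 units in post-reproduction, late torpor and early arousal. Its stages came in the same order, but their spots overlapped. Whether the probes for miR-199a-5p and miR-199b* share signal was not tested, so they need not be separate measurements.

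miR-214, which lies in one cluster with miR-199a on chromosome 1 and represses the Polycomb enzyme Ezh2 in muscle, did not have that order. Its probe with a target of 13 bases had 30.0 ± 3.48 units in post-reproduction, 23.7 ± 4.21 in late torpor and 27.4 ± 2.01 in early arousal. Late torpor, not early arousal, was the lowest stage, with spots from 18.7 to 32.2 against 24.3 to 34.2 in post-reproduction and 24.8 to 30.9 in early arousal, so all stages overlapped. All 10 spots of this probe were marked well above background on each array. Its values are near the 22.2 to 26.6 units of the viral entry. On the post-reproduction array, 8 of the 672 negative control spots were at or above the mean of the probe. The probe with a target of 12 bases, at 7.99 to 10.8 units, was not detected on any array, and it too was lowest in late torpor.

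**Figure D1:**
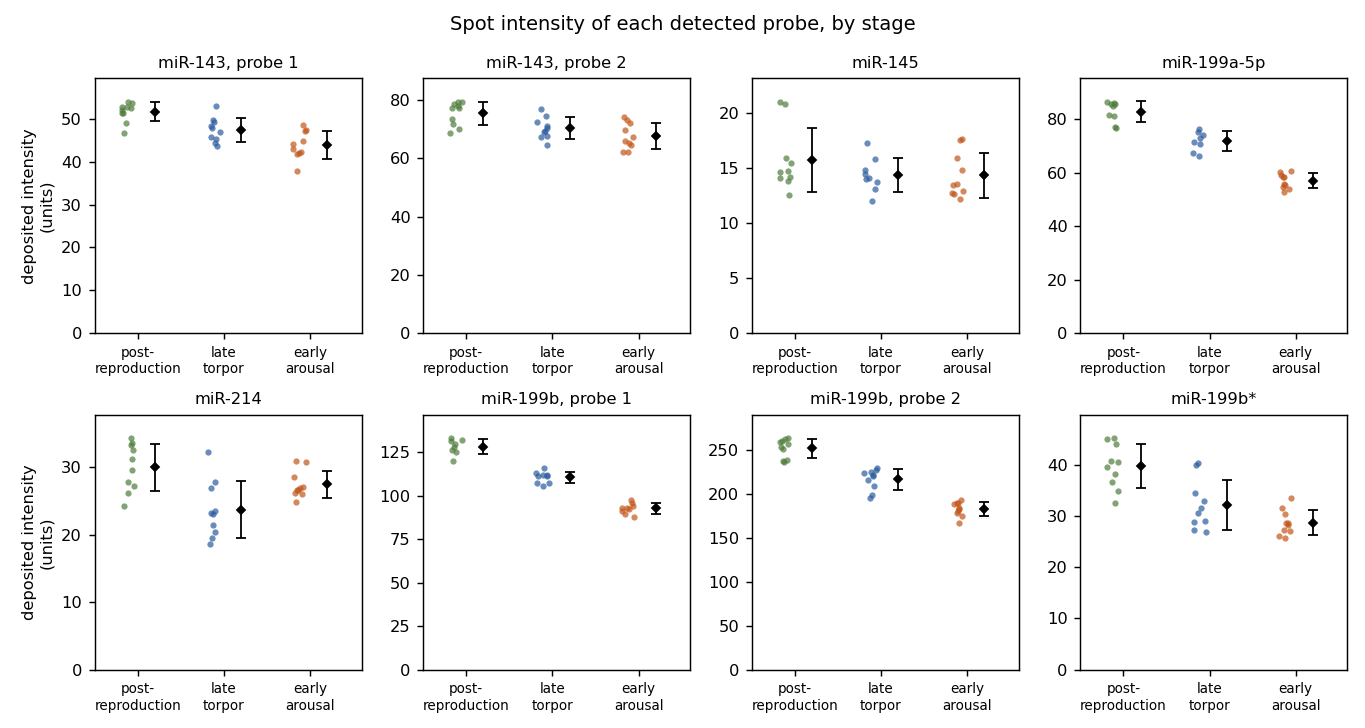
Deposited intensity (units, axes from 0) of every kept spot of each detected probe in post-reproduction (green), late torpor (blue) and early arousal (orange), with the mean and the SD over spots as a black diamond and bar. The miR-199a-5p and miR-199b spots are lowest in early arousal (means of 56.9, 92.6 and 183), whereas the spots of miR-143, miR-145 and miR-214 overlap between stages.

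The other strands of both hairpins that the array covers were not detected. miR-145* had probe means of -1.57 to 2.16 units and miR-214* of -2.37 to 1.36 units over 4 probes each and all 3 arrays. These levels are those of empty spots, as the median negative control spot had 1.21 to 1.69 units. miR-143* was on the list of partners and has no entry of that name.

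The first comparison set late torpor against post-reproduction and so asked how the stromal miRNAs of the torpid liver differ from those of the active season. The 4 members lay close to 0, at 0.079 ± 0.024 for miR-143, 0.074 ± 0.093 for miR-145, -0.016 ± 0.034 for miR-199a-5p and -0.16 ± 0.095 for miR-214. The miR-199b entry was at -0.025 ± 0.019 and miR-199b* at -0.12 ± 0.083. No member passed the rule of size, a log2 difference of at least 1 (2-fold) that is more than 2 times its SE and of one sign in all measured probes, and 2.22% of the 135 measured miRNAs did. A single member, miR-143, differed by more than 2 SE, against 83% of all measured miRNAs. After scaling, the spots of every detected member probe overlapped between these stages, whereas 47.2% of the 246 probes of measured miRNAs had spots that did not. The SE from spots was 0.093 for miR-145 and 0.095 for miR-214, beside a median of 0.030 over all measured miRNAs. For these dim probes, fewer differences beyond 2 SE and overlapping spots do not show a smaller change. The median of the members was 0.029 and that of all measured miRNAs 0.13, so that relative to the whole array the members were lower by a median log2 value of -0.10. miR-143, miR-199a-5p, miR-214 and both miR-199b strands were below the array median under each of 12 other settings for scaling, filters and background. miR-145 was below it under 10 of them, and above it, by 0.0094, with normexp. This is a model-based background correction with an added offset of 50 units. Settings that only shift whole arrays leave values relative to the median unchanged, so their agreement was fixed in advance. The sign of the unadjusted differences was less fixed: miR-143 and miR-145 were below 0 under 7 of the 12 settings, among them no scaling (-0.11 and -0.12).

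The second comparison, early arousal against post-reproduction, separated the miR-199 entries from the other members. miR-199a-5p was 1.28-fold lower in early arousal, at a log2 difference of -0.36 ± 0.032. The miR-199b entry was 1.21-fold lower at -0.28 ± 0.018 and miR-199b* 1.22-fold lower at -0.28 ± 0.063. In contrast, miR-143 was at -0.013 ± 0.027, miR-145 at 0.060 ± 0.10 and miR-214 at 0.062 ± 0.063, none of them beyond 2 SE. Among all 135 measured miRNAs, miR-199a-5p ranked 22nd from the lowest and the miR-199b entry 29th, while miR-214 fell on the median of 0.062. No member passed the rule of size, which 3.7% of the measured miRNAs passed. A single one of the 4 differed by more than 2 SE, against 88.1% of all. The SE of miR-145 and miR-214, 0.10 and 0.063, was wider than the median of 0.031 over all measured miRNAs. The 3 miR-199 entries were below 0 under each of 12 other settings, from -0.90 (all probes in the scaling, spots at or below 0 left out) to -0.14 (normexp) for miR-199a-5p, from -0.83 to -0.17 for miR-199b and from -0.83 to -0.029 for miR-199b*. miR-143, miR-145 and miR-214 were above 0 under 3, 7 and 6 of the 12 settings, as scalings shifted all miRNAs together. Relative to the array median, miR-143 was below it under each of the 12 settings, from -0.099 to -0.0025. Relative to it miR-145 was below under 7 settings and above under 4, and miR-214 below under 5 and above under 2. Here too, settings that only shift whole arrays cannot change these relative values.

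The kept spots of the miR-199a-5p probe and of both miR-199b probes did not overlap between these stages after scaling, which was also the case for 52% of all 246 probes. The scanner program's own summed signal carries an error that includes an assumed multiplicative part and is wider than the spread of spots. On the deposited scale, with no scaling between arrays, miR-199a-5p had 66.6 ± 6.35 units in post-reproduction, 58.2 ± 5.47 in late torpor and 45.6 ± 4.56 in early arousal. The unscaled difference between early arousal and post-reproduction, -20.9 with a combined error of 7.82, exceeded 2 errors. Each array was then scaled to the post-reproduction array by the 75th percentiles of the detected probes. The difference became -14.7 with an error of 8.20 and did not exceed 2 errors. For the miR-199b entry the unscaled difference was -75.5 with an error of 25.1, and the scaled one was -48.8 with an error of 26.3, again within 2 errors. With this probe-based scaling, no difference of any member between any pair of stages exceeded 2 of these errors. Other scalings of the summed signal were not set against these errors. Scaled values for early arousal against post-reproduction were -0.71 ± 9.77 units for miR-143, 0.33 ± 3.63 for miR-145 and 0.32 ± 4.55 for miR-214.

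The third comparison was between the hibernating stages, early arousal minus late torpor. miR-199a-5p was 1.27-fold lower in early arousal at -0.34 ± 0.034, the miR-199b entry 1.19-fold lower at -0.25 ± 0.019 and miR-199b* 1.12-fold lower at -0.16 ± 0.077. miR-214 lay on the other side, 1.17-fold higher at 0.22 ± 0.085, while miR-143 was at -0.091 ± 0.029 and miR-145 at -0.014 ± 0.080. No member passed the rule of size, against 2.96% of all, and 3 of the 4 differed by more than 2 SE, against 80% of all. The kept miR-199a-5p and miR-199b spots did not overlap between these stages after scaling, as was the case for 35.4% of all probes. The value of miR-199a-5p depended on 2 spots of the late torpor array that the scanner program marked as outliers, at 16.1 and 92.7 units. With all outlier spots kept it was -0.16, and late torpor against post-reproduction became -0.17 in place of -0.016. The miR-199b entry stayed at -0.25 when outlier spots were kept. Only with all probes in the scaling, among the 12 settings, did miR-214 turn below 0 (-0.025). This comparison shares its arrays with the first and the second, so its values are not separate evidence.

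**Figure D2:**
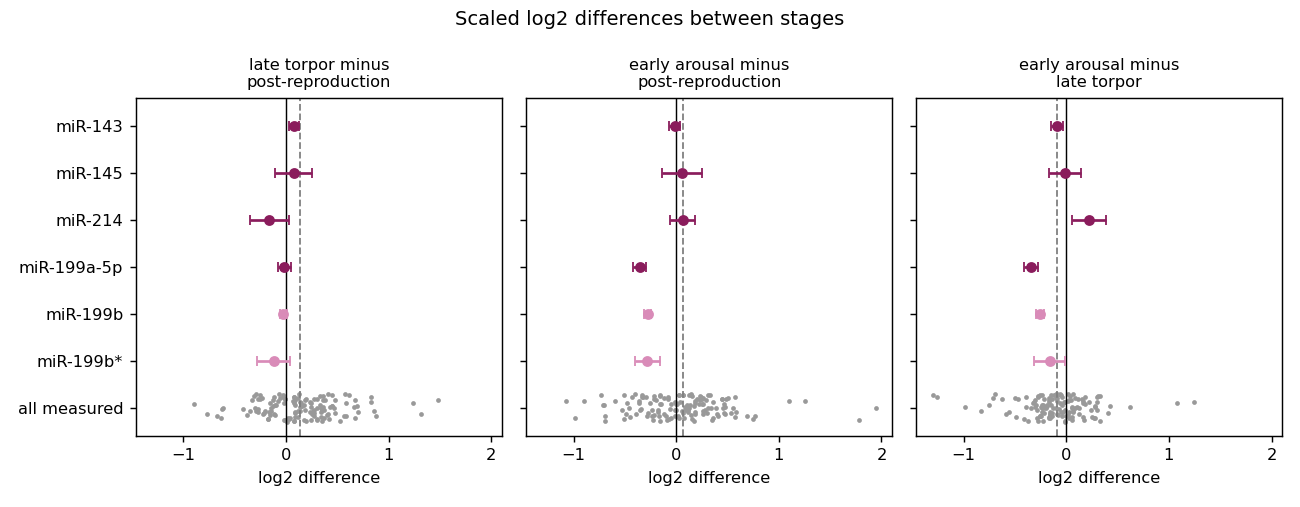
Scaled log2 differences (x axis) of the 4 members (dark) and of the entries miR-199b and miR-199b* (light) in the 3 comparisons, with 95% intervals from spots; grey points are all 135 measured miRNAs, the dashed line is their median and the solid line marks 0. In both comparisons with early arousal the miR-199 entries lie to the left of the median (-0.36, -0.28 and -0.28 against post-reproduction). The other members lie near it, except miR-214 at 0.22 against late torpor. That value turns to -0.025 with all probes in the scaling. It stays above the median of all measured miRNAs under each of 12 settings, though those that only shift whole arrays cannot change this.

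A ratio of 2 members on the same arrays does not move with a scaling that shifts whole arrays, so it shows how the members differ from each other. miR-214 and miR-199a-5p have targets 5580 bases apart on chromosome 1, and whether all miR-199a-5p comes from this position was not tested. They differed by 0.42 ± 0.071 between early arousal and post-reproduction, a 1.34-fold higher miR-214 to miR-199a-5p ratio in early arousal. Against late torpor the same ratio was 1.48-fold higher (0.56 ± 0.091). The ratio was above 0 in both comparisons under each of the 13 alternatives. It ran from 0.24 with normexp to 0.42 in the first case and from 0.24 with normexp to 0.60 in the second. Alternatives that only shift whole arrays, or count the miR-199b entry as a member, cannot change the ratio, so their agreement was fixed in advance. Between late torpor and post-reproduction the ratio was -0.15 ± 0.10, not beyond 2 SE. With the median of the negative control spots subtracted, the values were 0.42 and 0.60. The miR-214 probe lies at the level of the viral entry (23.7 units beside 26.5 in late torpor), a level that was not subtracted. These ratios therefore describe the probes, and the size for miR-214 itself was not measured.

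miR-143 and miR-145, made from one primary transcript, had a ratio whose difference was within the error from spots in each comparison. The log2 difference between them was 0.0043 (95% interval from spots -0.18 to 0.19) for late torpor against post-reproduction, -0.073 (-0.28 to 0.13) for early arousal against post-reproduction and -0.077 (-0.24 to 0.090) for early arousal against late torpor. These intervals cover the spread of spots only and give no bound on the miRNAs. The miR-145 probe was dimmer than the viral entry, and its off-target signal was not measured. Across the clusters, the miR-143 to miR-199a-5p ratio was 1.27-fold higher in early arousal than in post-reproduction (0.34 ± 0.042) and 1.19-fold higher than in late torpor (0.25 ± 0.045). The miR-199b entry reads miR-199b as well as miR-199a-3p, so it is not the other arm of a single hairpin. miR-199a-5p and this entry differed from each other by 0.0093 ± 0.039, -0.077 ± 0.037 and -0.087 ± 0.039 in the 3 comparisons. The last 2 were slightly beyond 2 SE. Their order was not stable: with normexp, early arousal against post-reproduction was -0.14 for miR-199a-5p and -0.17 for the miR-199b entry, with quantile normalization -0.31 and -0.42, and with outlier spots kept, early arousal against late torpor was -0.16 and -0.25.

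**Figure D3:**
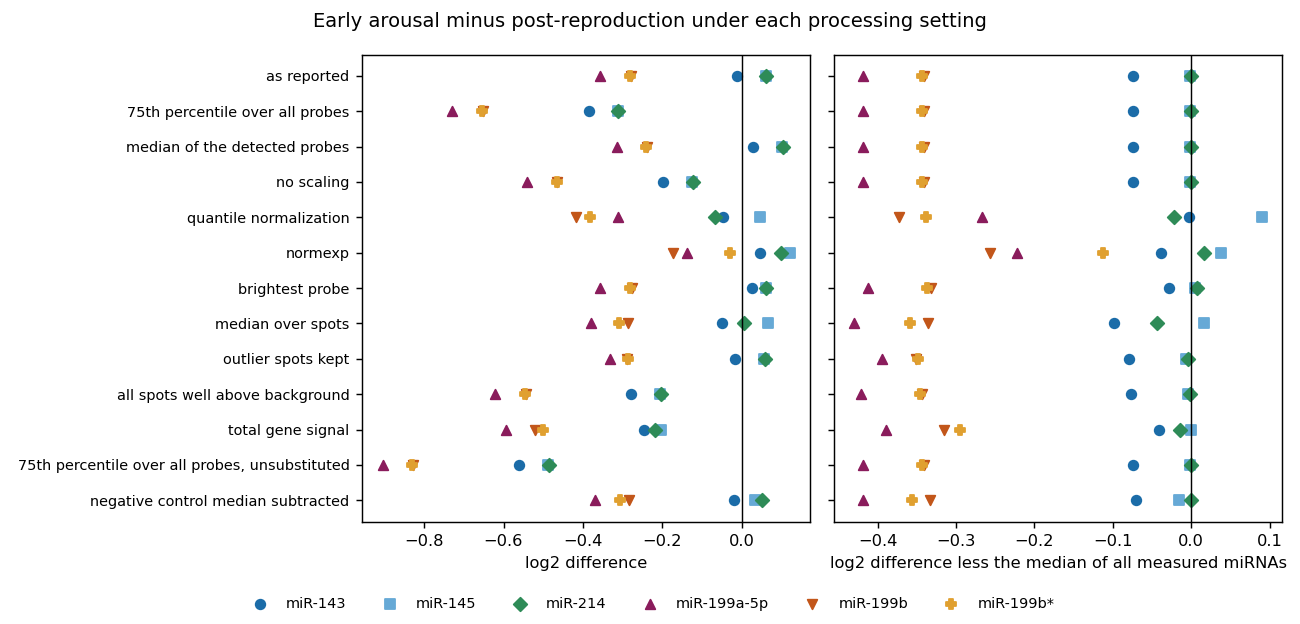
Log2 differences of early arousal minus post-reproduction for the 4 members and the miR-199b and miR-199b* entries under the reported processing and 12 other settings, as such (left) and less the median of all measured miRNAs (right). On the left the miR-199 entries are below 0 in each setting while miR-143, miR-145 and miR-214 change sign; on the right miR-199a-5p stays between -0.43 and -0.22 and the miR-199b entry between -0.37 and -0.26.

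A list of other miRNAs linked to the stroma did not follow the miR-199 entries as a group. Whether its entries come from stromal cells alone was not tested. Of 17 further mesenchymal and stromal miRNAs, 14 were measured, and the remaining 3 (miR-10b, miR-218 and miR-503) were not detected on any array. In early arousal against post-reproduction 9 of the 14 were above 0 and 5 below, with a median of 0.075 beside 0.062 over all measured miRNAs, of which 75 of 135 were above 0. None of the 14 passed the rule of size, which 3.7% of all passed. miR-322 was the highest at 0.45 ± 0.12 and miR-152, a repressor of DNA methyltransferase 1, the lowest at -0.60 ± 0.045. In late torpor against post-reproduction the list had a median of 0.088, 10 above and 4 below beside 88 and 47 of all, from -0.63 for miR-152 to 0.42 for miR-100. Between early arousal and late torpor it had a median of -0.029, with 6 above and 8 below beside 47 and 88 of all, from -0.27 for miR-99a to 0.33 for miR-322. The sign of these medians turned under 7, 6 and 3 of the 13 alternatives for late torpor against post-reproduction, early arousal against post-reproduction and early arousal against late torpor.

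A list of 15 miRNAs tied to fibrosis and stellate cell activation, such as miR-21 and the collagen-repressing miR-29 family, had 14 measured entries. Among them, miR-221, miR-222, miR-150, miR-146a and miR-194 are also on the endothelial, leukocyte or hepatocyte lists below, so these lists are not separate. The median of the fibrosis list was 0.14 in late torpor against post-reproduction (10 above 0, 4 below), 0.019 in early arousal against post-reproduction (8 above, 6 below) and -0.22 in early arousal against late torpor (3 above, 11 below). The corresponding counts over all measured miRNAs were 88 above and 47 below, 75 and 60, and 47 and 88. None of the list passed the rule of size, against 2.22%, 3.7% and 2.96% of all. The first 2 of these medians turned below 0 under 5 and 6 of the 13 alternatives. The highest entry in both comparisons with post-reproduction was miR-19b, at 0.52 ± 0.022 and 0.58 ± 0.024. The lowest were miR-222 at -0.42 ± 0.038 in late torpor and miR-34a, which p53 induces, at -0.90 ± 0.033 in early arousal. Against late torpor, early arousal ranged from -0.98 ± 0.036 for miR-34a to 0.068 ± 0.12 for miR-212.

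The arrays also carry miRNAs of striated muscle, which a liver sample should lack. Of 7 entries on this list 0 were measured on all arrays. A group of 3 was detected in late torpor, where the brightest probes of miR-133b, miR-1 and miR-133a had 21.4, 17.6 and 14.3 units. The same miRNAs in early arousal had 10.8, 10.8 and 8.49 units, and miR-133b and miR-1 were detected there as well. In post-reproduction the 3 had 8.76, 7.87 and 6.64 units, and none of them was detected. These levels are below that of the viral entry on the same arrays.

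Markers of other cell types in the liver differed between the same pools, and their part in the values of the members was not tested. The 3 red blood cell miRNAs had a median of 1.31 in late torpor and 0.53 in early arousal against post-reproduction. The latter turned to -0.019 with all probes in the scaling and spots at or below 0 left out. Values ran from 1.24 for miR-451 to 1.48 for miR-144 in late torpor. In early arousal they ran from 0.18 for miR-144 to 0.55 for miR-486. Of 7 leukocyte miRNAs 6 were measured, with medians of 0.37 and -0.19 in those comparisons. Each median had the other sign under 1 of the 13 alternatives. Single entries went both ways, from -0.27 for miR-146a to 0.67 for miR-223 in late torpor. In early arousal they ran from -0.49 for miR-146a to 0.47 for miR-181a. The 4 endothelial miRNAs had medians of 0.024 and -0.11, of the other sign under 7 and 1 of the alternatives, from miR-222 at -0.42 and -0.71 to miR-126-3p at 0.35 ± 0.020 in late torpor and miR-126-5p at 0.36 ± 0.053 in early arousal. The 6 measured hepatocyte miRNAs were miR-122, miR-192, miR-194, miR-148a, miR-193 and miR-365. They had medians of 0.29 and 0.15, below 0 under 2 and 6 of the 13 alternatives. Values ran from 0.027 for miR-194 to 0.47 for miR-193 in late torpor. In early arousal they ran from -0.014 for miR-148a to 0.48 for miR-365. Whether these come from hepatocytes alone was not tested. In the miR-200 family of bile duct epithelium, 2 of 5 were measured, with medians of -0.75 and -0.53. Both medians shrank with normexp, to -0.21 and -0.16. In late torpor miR-200b was at -0.89 and miR-200a at -0.62, and in early arousal they were at -0.73 and -0.33.

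**Figure D4:**
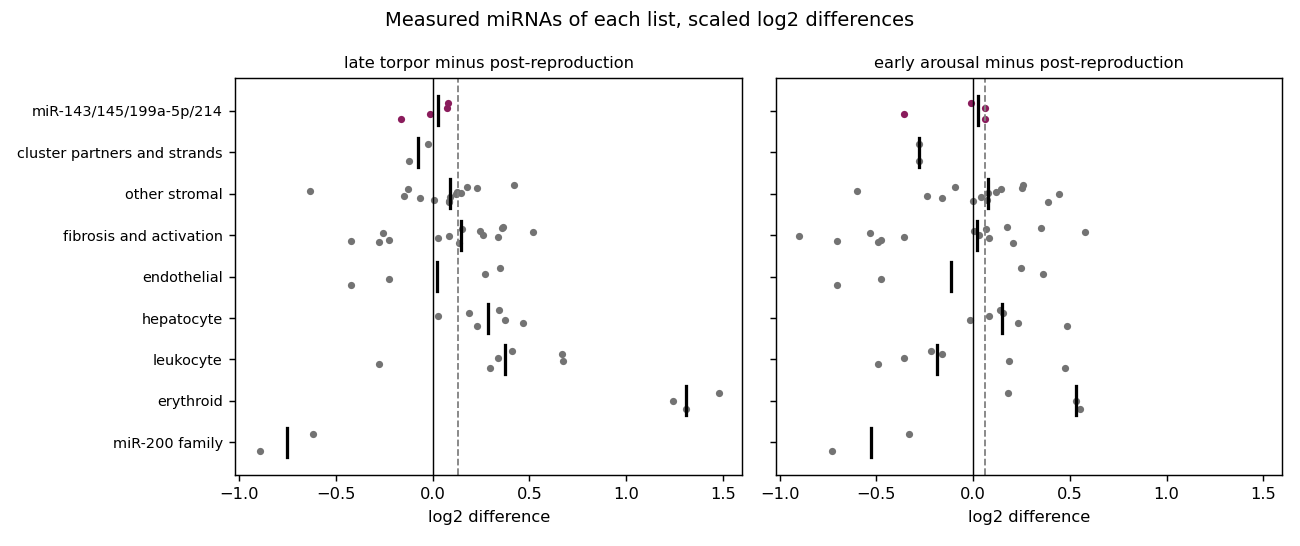
Scaled log2 differences (x axis) of the measured miRNAs of each list in late torpor (left) and early arousal (right) against post-reproduction; each point is a miRNA, black bars are medians, the dashed line is the median of all measured miRNAs and the solid line marks 0. The 4 members (top, dark) have medians of 0.029 and 0.024, and the red blood cell list lies farthest to the right with medians of 1.31 and 0.53; under other scalings the medians of the members in both panels and the 0.53 turn below 0.

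The measured miRNAs nearest to the medians of the members (0.029 and 0.024) were found by the straight-line distance of their 2 differences from post-reproduction. The sign of these medians turned under 10 and 8 of the 13 alternatives. Over the 3 arrays, miR-23b was the nearest (distance 0.052), with differences of 0.0087 ± 0.014 and 0.071 ± 0.013. miR-27b (0.060), miR-194 (0.061), miR-31 (0.062) and miR-30a* (0.063) followed. The members themselves, which set these medians, lay at distances of 0.058 for miR-145, 0.061 for miR-143, 0.19 for miR-214 and 0.38 for miR-199a-5p.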

How the data were processed

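The scanner program was Agilent Feature Extraction 9.5.3.1 (per the submitters' processing notes). Each deposited intensity had a fitted spatial surface subtracted, per the file headers, and no step between arrays. Values in the authors' deposited table matched this intensity at all 12493 spots of each array (relative tolerance 1e-06), linear and uncentred, with medians of 1.05, 1.15 and 1.13 units in early arousal, late torpor and post-reproduction.

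Control spots and outlier spots (398, 280 and 317) were left out. Spots at or below 0 were set to the lowest spot well above background, which touched 0 spots of the members. Means of log2 intensity were taken over each probe's spots, less the 75th percentile of the array over the 250 probes detected on all arrays (350.4, 349.1 and 398.3 units), then over detected probes. Differences carry an SE from spots, and no test between arrays was made. The functions were tested on simulated data. Python 3.11.15, numpy 2.4.6, pandas 2.3.3 and, for normexp (offset 50), limma 3.58.1 were used.

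Named miRNAs were the members with their probes, measured cluster partners, the highest and lowest of each list and the 5 nearest patterns. Members and lists were chosen with earlier results of these data known. Sequences of the miRNAs were not used here.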

Additional observations from a re-analysis of the deposited data

How the results depend on the processing

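Besides 10 alternatives listed at the start, 3 were chosen after seeing the data (all-probe scaling with spots at or below 0 left out, here the unsubstituted scaling, subtraction of the negative control median, and the miR-199b entry counted as a member). The median of the members in late torpor against post-reproduction, 0.029, became -0.21 with detection in all spots, -0.28 with the total gene signal and -0.41 with the unsubstituted scaling. In early arousal against post-reproduction, 0.024 became -0.35 with all probes in the scaling, -0.16 without scaling, -0.24 with detection in all spots, -0.23 with the total gene signal and -0.52 with the unsubstituted scaling. Against late torpor, -0.052 became -0.30 with all probes in the scaling. The spread of the members there, 0.56, was 0.24 with normexp. The number of measured miRNAs past the rule of size in late torpor against post-reproduction, 3, was 1 with normexp, 5 with detection in all spots and 7 with the unsubstituted scaling. In early arousal against post-reproduction, 5 became 2 with normexp, 10 with all probes in the scaling and 18 with the unsubstituted scaling, and against late torpor 4 became 0 with normexp. No member passed the rule under any of the 13. Scaling took the median over the 135 measured miRNAs from 0.13 to as low as -0.31, from 0.062 to as low as -0.49 and from -0.094 to as low as -0.34 in the 3 comparisons. The median of the members less that of all kept its sign in each comparison under all 13, from -0.17 to -0.061, from -0.075 to -0.011 and from 0.0029 to 0.10. Scalings that only move whole arrays could not change this value. normexp adds an offset of 50 units to every spot, beside means of 14.3 to 82.9 units for the detected member probes. An added constant of this size shrinks log2 differences by construction. What else shifted the values between settings was not tested. Signal over background limits miR-145 and miR-214, whose detected probes had means of 14.3 to 30.0 units. Scaling the total gene signal, also chosen after seeing the data, took the differences of miR-199a-5p and miR-199b between early arousal and post-reproduction within 2 of the deposited errors. No paired analysis was possible because each stage has 1 array.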
